A study of Mus musculus with 2 samples.

Results

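The genes described here are the replication-dependent histone genes of the mouse, taken as every gene of the counts table whose symbol starts with Hist1, Hist2, Hist3, Hist4, H2ac, H2bc, H3c or H4c. The rule found 61 of the 30084 genes in the table: 20 H2A, 17 H2B, 12 H3 and 12 H4 genes. Of these, 51 lie on chromosome 13 and 10 on chromosome 3. The rule reads the symbols only and no measured value. The cells came from the stromal vascular fraction (the cells of fat other than adipocytes) of the epididymal fat of male mice with a C57BL/6J background. The mice were wild-type or lacked Mincle, a C-type lectin receptor of macrophages, and all were given a high-fat diet over 15 weeks. Suspensions were stained with hashtag antibodies, pooled and captured as 1 pool of 20000 loaded cells on a BD Rhapsody system, and the cDNA was amplified by TAS-Seq. The authors' cell names carry 4 hashtags, A0309, A0310, A0311 and A0312. The labels leave the genotype and the number of mice of each hashtag unstated. The genotypes were therefore not compared, the hashtags are not replicates, and no difference was tested (0 p-values).

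Nucleosomes need new histones when DNA is copied, and the replication-dependent genes are known for being transcribed in S phase, in clusters of many near-identical copies. Their RNAs classically lack a poly(A) tail and end just after a conserved stem-loop that the protein SLBP binds. Some members are known to give polyadenylated RNA as well, H2bc4 (older name Hist1h2bc) and H2bc21 (older name Hist2h2be) among them, and these can be made outside S phase. H2A and H2B pair in the nucleosome as a dimer, and H3 and H4 as a tetramer. Mki67 (the Ki-67 protein) and Top2a (topoisomerase II alpha) are widely used markers of cycling cells, and Top2a is highest in late S phase, G2 and M.

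The ends of the member RNAs are shown first, because BD Rhapsody beads are known to capture RNA by its poly(A) tail and the members differ at this end. Of the 61 members, 60 were matched to a transcript model of GENCODE vM21 (build GRCm38), and 39 of them hold the 16-base stem-loop in their model, against 0.221% of 141767 transcripts in that set. The 12 bases before and the 2 bases after are printed in lower case and the stem-loop in capitals, 5′ to 3′ on the coding strand.
Hist1h2ap: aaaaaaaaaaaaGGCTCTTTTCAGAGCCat
Hist1h2ao: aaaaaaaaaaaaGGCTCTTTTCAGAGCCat
H2ac11: atcgccaacaaaGGCTCTTTTCAGAGCCac
H2ac6: ttcaaacccaaaGGCTCTTTTCAGAGCCcc
H2ac18: agctcctaaaaaGGCTCTTTTCAGAGCCac
H2bc8: tcctaacccaaaGGCTCTTTTCAGAGCCac
H3c3: tatttaaaaaaaGGCTCTTTTAAGAGCCac
H3c15: attccccacaaaGGCTCTTTTCAGAGCCac
H4c9: atgctacttaaaGGCCCTTTTTAGGGCCac
Hist1h2ao and Hist1h2ap have 12 A directly before the stem-loop. They and H2ac6 are the 3 members with a run of 12 A anywhere in the model, a feature of 4.07% of all transcripts. In its longest model H2ac6 goes on for 2010 bases past the stem-loop, H3c15 for 377 and H4c9 for 330. No stem-loop stands in the listed models of H2bc4, H2ac10, Hist1h2an, H2ac12, H2ac13 and H2ac14; these models may end before it.

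Near-identical copies limit what a count of a single member means. The median member had 43.7% of its 50-base windows found in no other gene. The medians were 21.1% for H2A, 38.0% for H3, 50.3% for H2B and 60.1% for H4. Hist1h2ao stood at 6.5% and Hist1h2ap at 6.93%, while H2ac10 had 20.3%, H2bc4 69.9% and H2ac6 85.9%. H2bc4 shared at least 1 window with 100 other genes, H2ac6 with 25 and Hist1h2ao with 24. The count of H2bc4 is therefore limited in this way as well. There were 9 members under 10% and 2 with no window of their own. The sources used here do not give how reads that match several copies were assigned, so single H2A genes of chromosome 13 are uncertain and their sum is given beside them. They do not give the strand setting of the counting either. H2ac14 is annotated as an unprocessed pseudogene and H2ac5-ps as a pseudogene.

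The promoters of the members share motifs that the symbol rule did not use. RefSeq promoters (GRCm38.p6, 250 bases before to 50 after the start) were listed for 45 members. CCAAT, on either strand, was in 39 of these 45 and in 37.4% of the 32851 promoters of the table, and TATAAA in 26 of 45 against 13.6%. ATTTGCAT, the octamer, was in 13 of 45 against 1.74%. The octamer was found in 6 of 14 H2A and 7 of 12 H2B promoters, and in 0 of 10 H3 and 0 of 9 H4 promoters. CCAAT was in every listed H2A, H2B and H3 promoter (14, 12 and 10) and in 3 of 9 H4 promoters. Several listed H2A and H2B promoters cover nearly the same stretch, such as those of H2ac8 with H2bc8 and H2ac12 with H2bc12. The same motif is then counted for both genes, so these counts are not all of separate stretches. H2ac6 and H2bc4 are printed as a pair because they are neighbours read outward from 1 shared stretch, and H2ac6 was called higher in positive cells of every lineage compared while H2bc4 was called in none. Their starts lie 239 bases apart. The stretch is chr13:23683960-23684209, GRCm38.p6, on the minus strand, which is the strand of H2ac6, with CCAAT (or ATTGG), the octamer in its reverse form and TATAAA in capitals.
H2ac6-H2bc4: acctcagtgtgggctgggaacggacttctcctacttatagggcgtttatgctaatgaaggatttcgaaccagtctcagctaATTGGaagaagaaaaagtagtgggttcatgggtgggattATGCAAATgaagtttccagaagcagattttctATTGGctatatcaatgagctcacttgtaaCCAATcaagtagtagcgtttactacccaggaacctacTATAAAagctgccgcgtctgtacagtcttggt
A motif match is a description of these letters and not of binding.

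Counts in the table came to 651658017 over 15741 cells, and cells ranged from 6596 to 473807 counts around a median of 34182. Member counts came to 402087, or 0.0617% of all. After the cell filters 13024 cells were kept, and 11768 of these fell into 6 lineages named from fixed markers: 8437 macrophage-like, 1983 fibroblast-like, 731 endothelial-like, 226 negative and 87 positive NK-cell-like (as defined below), 156 mural-like and 148 dendritic-cell-like cells. The clusters were made without the members and without the S phase and G2/M gene lists. The NK-cell-like cells also carried T-cell markers, with values given below. Levels are given as CPM (a gene's counts scaled by the total of the summed cells), and intervals are exact Poisson 95% intervals, which cover counting error only. Hist1h2ap needs a caution: its lowest count in the table is 15, so its low values were set to 0 before deposit. It was listed above 0 in 708 cells, against 3847 for Hist1h2ao, and 5 of the 647 cells with 15 or more Hist1h2ao counts were at 0 for it.

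Per kilobase of the longest model, the highest members in the whole table were Hist1h2ap (197 CPM per kb), Hist1h2ao (161), H2bc4 (147) and H2ac11 (92.5). The next were H2ac19 (37.7), H2ac18 (35.5) and H2ac12 (35.4). H2A genes therefore took all but 1 of these 7 places. H4c9, the highest H4 gene, stood at 11.7 CPM per kb, and the H3 gene H3c15 at 6.17. In unscaled CPM, H2bc4 led with 170, before Hist1h2ap with 94.8 and Hist1h2ao with 77.5. With capture by the poly(A) tail, counts need not scale with the length of the model, so the order per kilobase is a description only. H2ac6, with a long model, had 24.1 CPM but 9.70 CPM per kb.

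Summed over all 61 members, the level differed by lineage. NK-cell-like cells had 1478 CPM (interval 1440 to 1518) and dendritic-cell-like cells 1113 (1082 to 1144). Macrophage-like cells had 779 (776 to 782), endothelial-like cells 521 (508 to 534), mural-like cells 220 (202 to 239) and fibroblast-like cells 205 (202 to 208). The hashtags spread widely in the small lineages, from 296 to 2334 CPM in NK-cell-like cells, 466 to 1288 in dendritic-cell-like and 376 to 837 in endothelial-like cells. The range was narrower in fibroblast-like (180 to 228) and macrophage-like cells (683 to 852). The neighbours NK-cell-like and dendritic-cell-like, dendritic-cell-like and macrophage-like, macrophage-like and endothelial-like, and mural-like and fibroblast-like overlapped in these hashtag ranges, while fibroblast-like cells lay under macrophage-like cells in each hashtag.

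The share of cells with Mki67 or Top2a counts also differed by lineage. A cell was called positive when it had at least 1 count of Mki67 or Top2a, and negative otherwise. Positive is not the same as cycling. In macrophage-like cells with 1 to 4 counts of the 2 markers, the G2/M list had 95.1 CPM. It had 60.0 CPM in negative cells and 2013 in cells with 5 or more counts. Positive cells made up 3020 of 8437 macrophage-like cells (35.8%), 58 of 148 dendritic-cell-like (39.2%), 27.8% of NK-cell-like cells, 347 of 1983 fibroblast-like (17.5%), 128 of 731 endothelial-like (17.5%) and 17 of 156 mural-like cells (10.9%). In macrophage-like cells the share by hashtag was 38.2%, 35.6%, 36.4% and 34.2%. Positive cells were deeper, with a median of 52017 counts against 33410 in macrophage-like cells, 41183 against 34399 in fibroblast-like and 16565 against 12169 in endothelial-like cells. With each cell thinned to 15000 counts, the share was 27.3% of 7523 macrophage-like cells (914 too shallow to enter), 10.7% of 1815 fibroblast-like (168), 20.7% of 266 endothelial-like (465), 62.2% of 45 NK-cell-like (268), 35.2% of 125 dendritic-cell-like (23) and 14.1% of 64 mural-like cells (92). The order of the lineages was thus not the same at equal depth, where most NK-cell-like and endothelial-like cells dropped out.

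In macrophage-like cells, the H2A genes of chromosome 13 were 23.1-fold higher in positive cells, while none of the other 6 members at 5 CPM met the size rule used here. The 16 chromosome 13 H2A genes together had 950 CPM in positive cells (1064, 751, 1111 and 890 in hashtags A0309 to A0312) and 41.2 in negative cells (40.1, 37.4, 47.3 and 39.7). Each hashtag's positive cells lay far above every hashtag's negative cells. This sum, like every chromosome 13 H2A sum below, includes Hist1h2ap, whose low values were set to 0. The fold of the chromosome 13 H2A genes without Hist1h2ap is not given here. Over all 61 members the fold was 3.32 with Hist1h2ap and 2.59 without it. A gene is called higher or lower below when the log2 ratio of CPM + 1 was at least 1 in size and of 1 sign, both over the whole pool and within each hashtag that had 20 or more cells in each class. Genes had to reach 5 CPM in either class, which 19 members did. Of these, 13 were called higher and 0 lower, where the same rule called 2.9% of 10433 genes higher and 0.0288% lower. All 13 were H2A genes of chromosome 13. Only Hist1h2ao, H2ac11 and H2ac6 of the 13 also reached 5 CPM in negative cells; the other 10 passed the filter through their positive cells. Over all 61 members, whether or not they reached 5 CPM, the median log2 ratio was 0.51, over the 16 chromosome 13 H2A genes it was 3.42, and over all genes at 5 CPM it was 0.01.

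Hist1h2ao, a canonical H2A gene at chr13:21810465-21810944 on the plus strand, had 257, 179, 192 and 215 CPM in the positive macrophage-like cells of the 4 hashtags, 209 in the pool. Its negative cells had 10.9, 10.2, 10.4 and 11.3 CPM, 10.8 in the pool, a log2 ratio of 4.16. The values of the positive and the negative cells did not overlap. H2ac11 (older name Hist1h2ag) followed with 157, 111, 91.4 and 129 CPM in positive cells, 121 in the pool, against 6.30 in negative cells (log2 ratio 4.06). H2ac6 (older name Hist1h2ac), the member with the most unique sequence among the abundant H2A genes, had 75.3, 54.0, 55.0 and 65.0 CPM, 62.0 in the pool, against 5.48 (log2 ratio 3.28). Hist1h2ap, with its low values at 0, was listed at 330, 237, 271 and 271 CPM in positive cells and at 0.327 in negative cells. For these 4 genes the order of the hashtags was not the same from gene to gene, but no positive value came near a negative one.

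Lower in level, 9 further chromosome 13 H2A genes met the rule. In positive and negative macrophage-like cells of the pool, H2ac7 had 41.7 and 2.63 CPM, H2ac8 39.9 and 3.77, and H2ac12 38.6 and 2.20. H2ac13 had 37.0 and 1.98, H2ac4 34.4 and 2.0, and H2ac14 29.9 and 1.79. Hist1h2an had 26.9 and 1.68, H2ac5-ps 19.1 and 1.15, and H2ac10 12.9 and 0.767. H2ac10 was chosen for naming after its values were seen. It is among the genes whose level was carried by hashtag A0311, described further below.

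H2bc4, the most abundant member in negative cells, ran the other way. It had 162, 193, 176 and 213 CPM in positive macrophage-like cells (189 in the pool) and 198, 238, 202 and 246 in negative cells (224 in the pool), a log2 ratio of −0.25. In each hashtag the positive cells lay under the negative cells of the same hashtag, but the 4 values of the classes overlapped, and the size rule was not met. H2ac6, which shares its promoter stretch with H2bc4 (printed above), had 62.0 against 5.48 CPM. The H2A genes of chromosome 3 likewise did not meet the rule. H2ac18 had 18, 18, 21.1 and 20.4 CPM in positive cells and 25.8, 28.3, 31.3 and 30.8 in negative cells (log2 ratio −0.57), without overlap, and its neighbour H2ac19 had 19.2 and 27.9 CPM in the pool (−0.52).

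Members of the other families were at low levels in macrophage-like cells. The 14 chromosome 13 H2B genes other than H2bc4 summed to 22.5 CPM in positive and 14.8 in negative cells, the 9 chromosome 13 H3 genes to 15.5 and 4.17, and the 11 chromosome 13 H4 genes to 27.5 and 19. H3c15 (older name Hist2h3c2) had 6.07 and 9.48 CPM (log2 ratio −0.57). H2bc8 had 6.12 and 6.01, H2bc6 4.28 and 4.08, H2bc21 3.85 and 3.86, and H4c8 3.39 and 4.27 CPM. H4c9 (older name Hist1h4i) had 13.3 and 9.38 CPM, a log2 ratio of 0.46. Over the 9 chromosome 13 H3 genes the median log2 ratio was 0.71. H3c3 alone had 5.71, 2.16, 3.80 and 3.43 CPM in positive cells by hashtag against 0.118 in the negative cells of the pool, a log2 ratio of 2.07; it stayed under the 5 CPM filter.

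**Figure D1:**
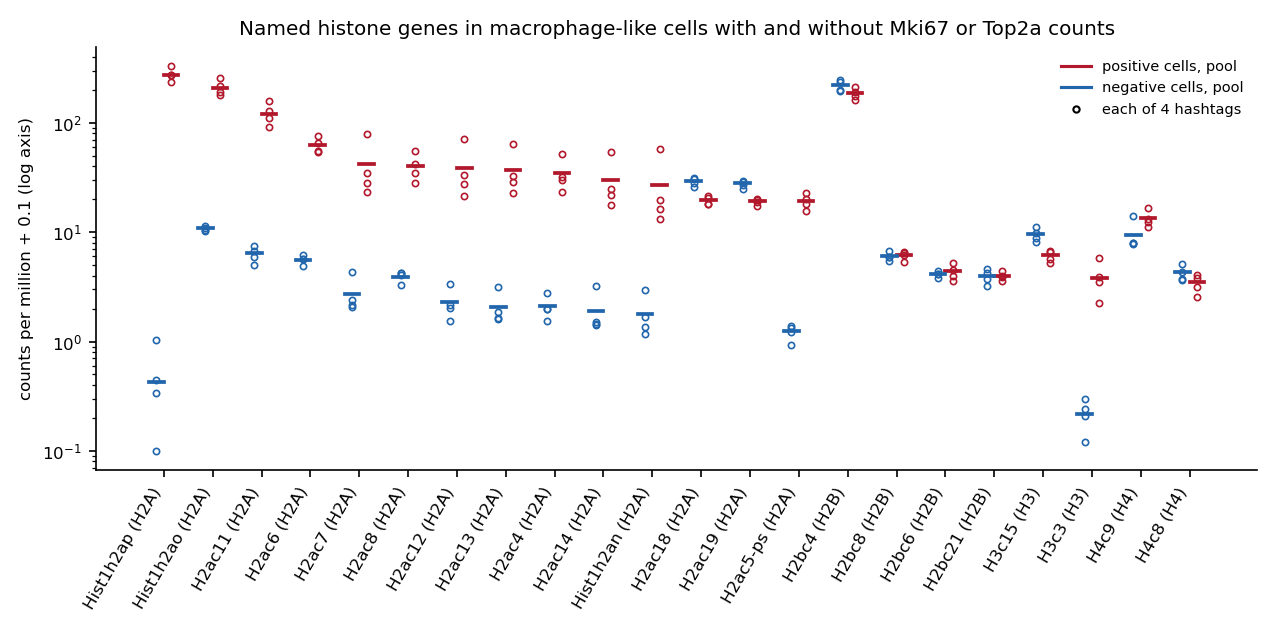
CPM + 0.1 (log axis) of the 22 named members in positive (red) and negative (blue) macrophage-like cells; the bars are the pool and the circles the 4 hashtags, with the family in parentheses. The H2A genes of chromosome 13 stand apart by class (Hist1h2ao 209 against 10.8 CPM), while H2bc4 (189 against 224), H2ac18 and H2ac19 lie slightly lower in positive cells, and 1 hashtag stands above the rest for H2ac7, H2ac12, H2ac13, H2ac14 and Hist1h2an.

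The high level in positive cells was carried by a minority of them. Chromosome 13 H2A counts were at 0 in 32.0% of positive and 55.2% of negative macrophage-like cells. A level of 1000 CPM or more was reached by 549 positive cells (18.2%) and by 13 negative cells (0.240%). The top 10% of positive cells held 73.1% of their chromosome 13 H2A counts, and the highest cell had 16215 CPM. At equal depth (15000 counts per cell), Hist1h2ao was detected in 43.3% of positive and 13.3% of negative cells, H2ac11 in 37.2% and 8.52%, and H2ac6 in 31.7% and 6.49%. H2bc4 was detected in 55.7% and 65.2%, H2ac18 in 18% and 27.3%, H3c15 in 4.72% and 7.17%, and H4c9 in 13.3% and 8.30%. The thinned shares had the order of the levels for each of these 7 genes. Without thinning, Hist1h2ao was detected in 50.3% and 23.5% and H2bc4 in 71.8% and 67.2% of the cells, so for H2bc4 the order of the unthinned shares was the opposite of that of its levels.

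Cells with counts of both markers held nearly all of it. The chromosome 13 H2A level was 41.2 CPM in the 5417 macrophage-like cells with neither marker, 53.3 in 890 cells with Mki67 only, 48.1 in 851 cells with Top2a only and 1919 in 1279 cells with both. Cells with both were 42.4% of the positive cells and held 97.2% of the positive cells' chromosome 13 H2A counts. H2bc4 went from 224 CPM with neither to 272, 219 and 129 with both, and the 10 chromosome 3 genes from 76.4 to 66.1, 71.8 and 40.2. With positive taken as both markers, H2ac18 (log2 ratio −1.13) and H3c15 (−1.37) were called lower.

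In the other lineages the level was also highest in the cells with both markers, which were few. Fibroblast-like cells had 10.6 CPM of chromosome 13 H2A with neither, 12.7 with Mki67 only, 12.7 with Top2a only and 1531 with both, the last from 40 cells that held 95.5% of the positive cells' counts. Endothelial-like cells had 37.5, 106, 266 and 2575 CPM, with 39 cells in the last class, and NK-cell-like cells 77.1, 182, 176 and 5992, with 27. In endothelial-like and NK-cell-like cells, as in macrophage-like cells, the level with 1 marker already lay above that with neither beyond counting error. In endothelial-like cells the lower bound was 228 with Top2a only, against an upper bound of 41.8 with neither. In fibroblast-like cells the intervals overlapped (9.78 to 11.4 with neither, 10.2 to 15.6 with Mki67 only and 10.1 to 15.7 with Top2a only). In the 32 dendritic-cell-like cells with both, the level was 2977 CPM; cells with 1 marker were too few there to be given. Markers of other cell types moved with this class in some lineages. The 6 macrophage markers, all detected, summed to 208 CPM in the fibroblast-like cells with both against 108 in negative cells, while these cells' own fibroblast markers summed to 43675 and 44748. The 6 fibroblast markers summed to 788 CPM in the endothelial-like cells with both against 112 in negative cells, where 5 of the 6 were detected, and to between 67.8 and 1459 over the hashtags of the positive cells. In dendritic-cell-like cells the 6 macrophage markers summed to 1599 with both and 1230 in negative cells. In positive NK-cell-like cells the 6 T-cell markers summed to 2076 CPM and the 5 NK markers to 1036, against 1548 and 1813 in negative cells. In the 27 NK-cell-like cells with both Mki67 and Top2a, the T-cell markers summed to 2281 CPM and the NK markers to 851. The name NK-cell-like therefore does not set NK cells apart from T cells here. The 4 mast-cell markers summed to 1415 CPM in positive NK-cell-like cells against 11.6 in negative cells, where 3 of the 4 were detected; they summed to 8.10 in the positive cells of A0312, and all 4 were at 0 in the 27 cells with both markers. Low values of the fibroblast markers Col3a1, Dcn and Lum (lowest counts 37, 68 and 8) had been set to 0 before deposit. The same holds for the macrophage markers Cd68 and C1qa (7 and 6), so these sums and detections miss low counts. The part of these markers' source cells in the histone values was not tested.

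**Figure D2:**
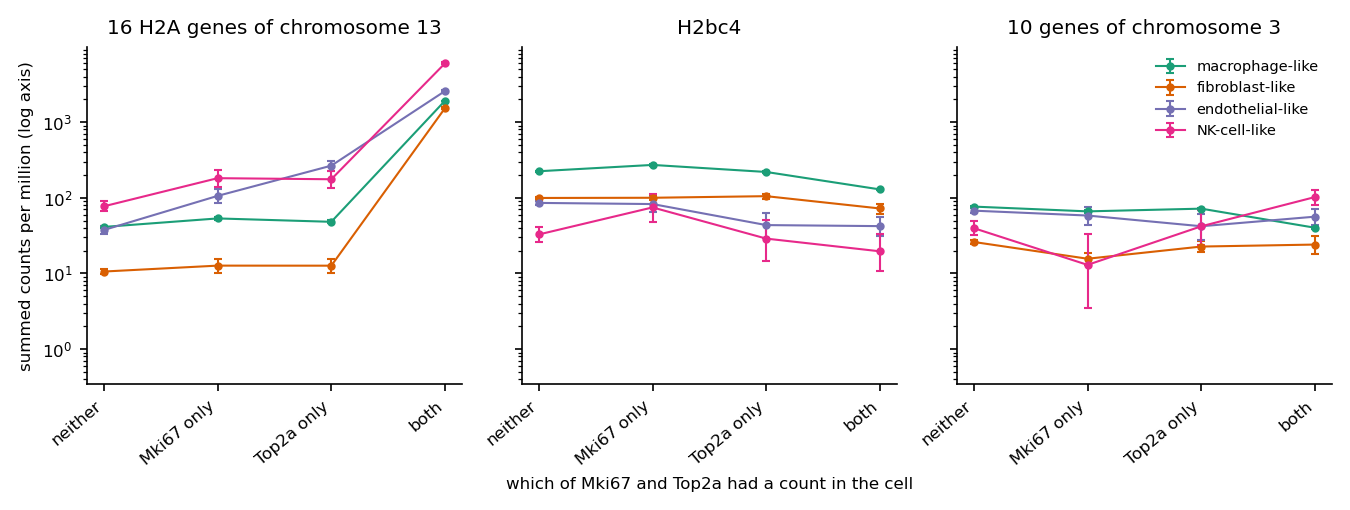
Summed CPM (log axis) of the 16 chromosome 13 H2A genes, of H2bc4 and of the 10 chromosome 3 genes in cells with neither marker, Mki67 only, Top2a only or both, for the 4 lineages with the most cells; bars are exact Poisson 95% intervals. The H2A genes step up most between the single-marker classes and both (48.1 to 1919 CPM in macrophage-like cells), and H2bc4 and the chromosome 3 genes show no such step in fibroblast-like or macrophage-like cells.

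Across lineages, the chromosome 13 H2A genes were higher in positive cells by 22.6-fold in fibroblast-like (239 against 10.6 CPM), 33.0-fold in endothelial-like (1236 against 37.5), 40.7-fold in NK-cell-like (3136 against 77.1) and 51.3-fold in dendritic-cell-like cells (1884 against 36.8). Fibroblast-like cells varied between hashtags, with 242, 69.2, 215 and 365 CPM in positive cells. Endothelial-like positive cells had 1743, 1773, 1147 and 581 CPM. Hist1h2ao alone had 54.1, 12.4, 45.7 and 92.6 CPM in positive fibroblast-like cells against 2.72 in the negative cells of the pool, and 427, 441, 203 and 138 in positive endothelial-like cells against 9.72. It had 731 against 15.1 CPM in NK-cell-like and 437 against 12.5 in dendritic-cell-like cells. The lowest positive value, that of A0310 in fibroblast-like cells, still lay above the 4 negative values there.

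In fibroblast-like cells 11 of 16 members at 5 CPM were called higher and 0 lower (background 0.764% higher and 0.00868% lower). H2ac14, H2ac18, H2ac19, H2bc4 and H2bc6 were not called. In endothelial-like cells 14 of 20 were higher and 0 lower (background 1.53% and 0.307%), 13 of them chromosome 13 H2A genes and the other H3c3, with 7.61 against 0.339 CPM. In NK-cell-like cells 34 of 46 were higher and 1 lower (background 7.01% and 9.45%), and in dendritic-cell-like cells 23 of 34 higher and 1 lower (background 7.2% and 3.87%); in both lineages only 1 hashtag had enough cells to enter the rule. Of the members called higher, 0 in fibroblast-like, 3 in endothelial-like, 9 in NK-cell-like and 3 in dendritic-cell-like cells also reached 5 CPM in negative cells. The others passed the filter through their positive cells, so their call was largely set by it. In negative cells, 15 of the 61 members were at 0 in NK-cell-like and 17 in dendritic-cell-like cells. The called genes there included other families: 15 H2A, 9 H2B, 6 H3 and 4 H4 genes in NK-cell-like cells, and 13 H2A, 2 H2B, 5 H3 and 3 H4 genes in dendritic-cell-like cells. The 9 chromosome 13 H3 genes summed to 116 against 15.1 CPM in NK-cell-like cells and 61.1 against 7.52 in dendritic-cell-like cells. H3c3 had 34.2 and 10.4 CPM in these positive cells and no count in the negative cells of either lineage. Called lower were H2ac19 in NK-cell-like cells (5.70 against 14.7 CPM) and H4c8 in dendritic-cell-like cells (0.947 against 5.43). Whether the lineages differ in these ratios was not tested.

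The members called higher in all 5 lineages were 11 chromosome 13 H2A genes: Hist1h2ao, Hist1h2ap, Hist1h2an, H2ac4, H2ac5-ps, H2ac6, H2ac7, H2ac8, H2ac11, H2ac12 and H2ac13. This list rests on small counts in some lineages: members called higher numbered 3 in fibroblast-like cells with a pseudocount of 5 CPM or a filter of 20 CPM, and 2 in endothelial-like cells without the cells over the 95th percentile of counts. With the authors' hashtag calls or the strict hashtag rule no cluster was named NK-cell-like. Another 24 members were called higher in none, among them H2bc4, H2ac18 and H2ac19, which reached 5 CPM in all 5 lineages. Others of the 24, such as H2bc21 and H2ac21, stayed under 5 CPM in all 5 lineages and could not be called. Still others, such as H3c15, reached 5 CPM in only some lineages. The shares of all genes called higher in all 5 lineages or in none are not given here. H2bc4 was called in no lineage, with 97.9 against 99.4 CPM in fibroblast-like, 55.7 against 85.5 in endothelial-like, 34.2 against 32.8 in NK-cell-like and 62.0 against 38.0 in dendritic-cell-like cells.

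**Figure D3:**
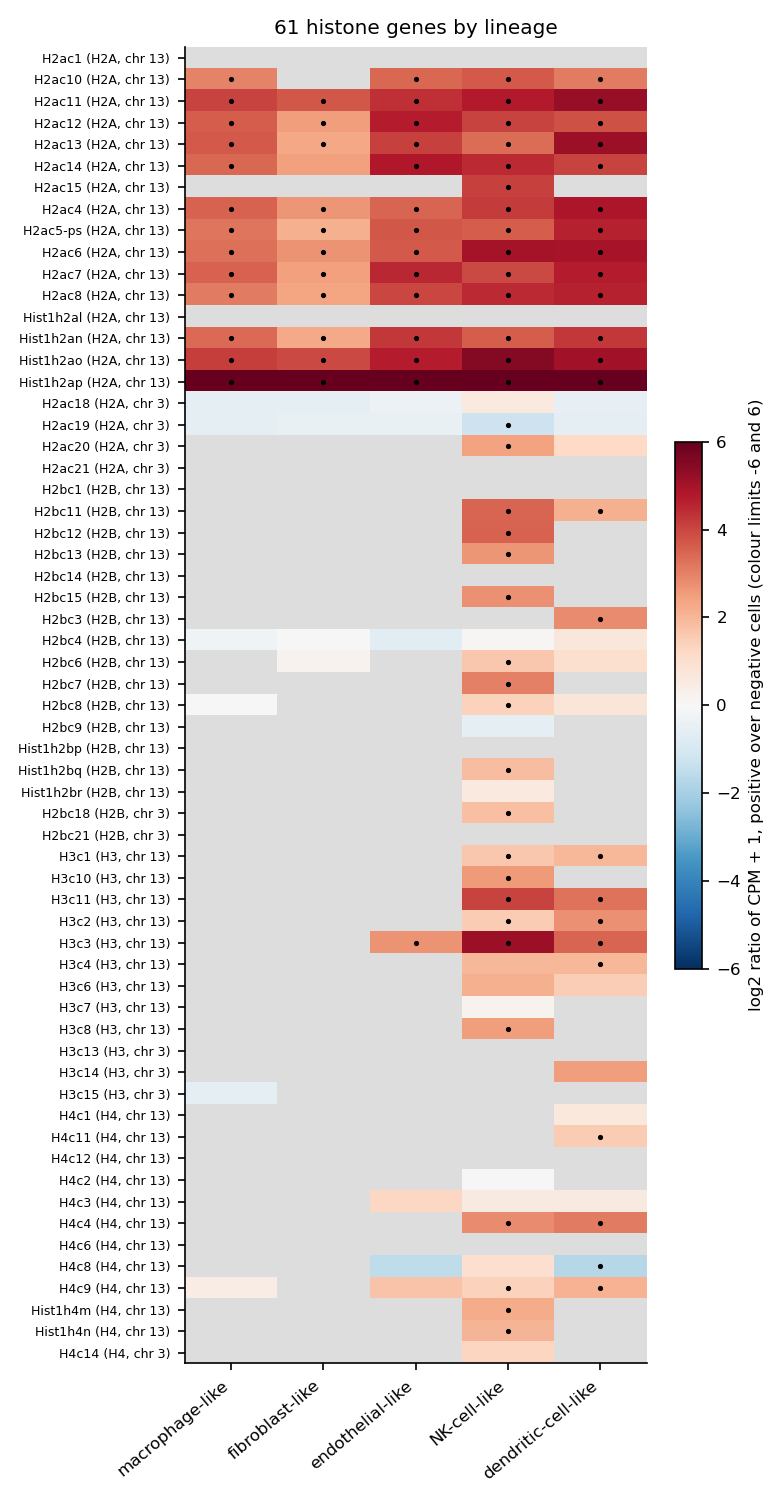
Log2 ratio of CPM + 1 in positive over negative cells (colour) for the 61 members, by family and chromosome, in the 5 lineages with at least 50 positive cells; a dot marks a gene called by the size rule and grey a gene under 5 CPM in both classes. The block of chromosome 13 H2A genes is red in every lineage, and most H2B, H3 and H4 genes reach 5 CPM only in NK-cell-like and dendritic-cell-like cells.

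Among negative cells, some members differed in level between lineages. These cells lack counts of Mki67 and Top2a but are not free of cycle genes: in macrophage-like cells the S phase list had 505 CPM and the G2/M list 60.0. Of 10 members at 5 CPM in negative cells, 7 were called higher in macrophage-like than in fibroblast-like cells and 1 lower (background 12.4% and 18.5%). The log2 ratios were 2.13 for H4c9, 1.66 for Hist1h2ao, 1.53 for H2ac18, 1.48 for H2ac19, 1.43 for H2ac11, 1.32 for H2ac6 and 1.17 for H2bc4. H2bc6 was the gene called lower, with 10.6 CPM in fibroblast-like cells against 4.08, a log2 ratio of −1.20. A stricter set also had no count of those list genes that were detected in at most 50% of cells without either marker. List genes above that share were allowed counts. In this set (415 macrophage-like and 152 fibroblast-like cells), 3 members were higher and 0 lower. The share over all genes in this set is not given here. Over all negative cells, none of 10 members was called between macrophage-like and endothelial-like cells (0 higher and 0 lower, background 10.1% and 18.6%). Likewise none of 8 was called between fibroblast-like and endothelial-like cells (background 10.7% and 11.7%). In positive cells, 14 of 20 members were higher in macrophage-like than in fibroblast-like cells (background 11.2%). Only H2bc4 of 21 members was higher in macrophage-like than in endothelial-like cells (log2 ratio 1.74, background 8.44%). Between fibroblast-like and endothelial-like positive cells, 7 of 20 were lower in the first (background 9.11%) and 0 higher (background 9.01%), from H3c3 (−2.86) and H2ac12 (−2.63) to H2ac18 (−1.67). Cells with both markers were 42.4% of the positive macrophage-like, 11.5% of the fibroblast-like and 30.5% of the endothelial-like cells. In the cells with both, chromosome 13 H2A genes had 1919, 1531 and 2575 CPM. The part of these unequal shares in the lineage differences of positive cells was not tested.

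Within positive macrophage-like cells, the chromosome 13 H2A genes were highest at a mixed balance of S phase and G2/M genes, with S phase counts still the larger. These cells were put in 5 bins of 602 or 603 cells by the share of G2/M list counts among S phase and G2/M list counts. A bin is a range of this score, not a cell type. The median share per bin was 0%, 6.09%, 15.2%, 39.3% and 80.3%. Chromosome 13 H2A genes had 38.8, 52.8, 552, 2433 and 1726 CPM over the bins. In the first bin they were at the level of the negative cells (41.2 CPM). Cells at 1000 CPM or more numbered 0 of 603 in the first bin and 0 in the second, where a count of 0, with the limit taken as 3 cells, allows a share of up to 0.498%, and 83 (13.8%), 261 (43.4%) and 205 (34.1%) in the others. Hist1h2ao followed with 11, 14, 126, 528 and 379 CPM and H2ac6 with 4.81, 5.08, 40.2, 153 and 110. The chromosome 13 H3 genes had 3.16, 3.0, 9.35, 33.6 and 29.2 CPM and the chromosome 13 H4 genes 14.6, 14.8, 20.9, 43.7 and 44.7. All of these families therefore had their low values in the first and second bins and their high values in the fourth and the fifth.

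H2bc4 and the chromosome 3 genes had another profile. H2bc4 stayed between 166 and 231 CPM over the 5 bins. The chromosome 3 genes went from 66.2 and 60.4 to 62.7, 53.9 and 31.7 CPM. H2ac18 had 24.9, 22.9, 23.8, 17.6 and 8.00 CPM, H2ac19 24.1, 24.7, 22.6, 16.4 and 7.24, and H3c15 8.97, 5.92, 7.17, 6.53 and 2.04. These 3 genes were lowest in the fifth bin. Slbp, which encodes the stem-loop binding protein, had 39.2, 46.5, 58.7, 79.1 and 34.9 CPM, with its peak in the fourth bin as well. The S phase list, which helped define the bins, had 967, 1558, 1930, 2019 and 951 CPM, and the G2/M list 9.79, 105, 379, 1406 and 3885. Median depth was lower in the first bin (39359 counts) than in the others (49716 to 62257), and its part in these values was not tested.

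**Figure D4:**
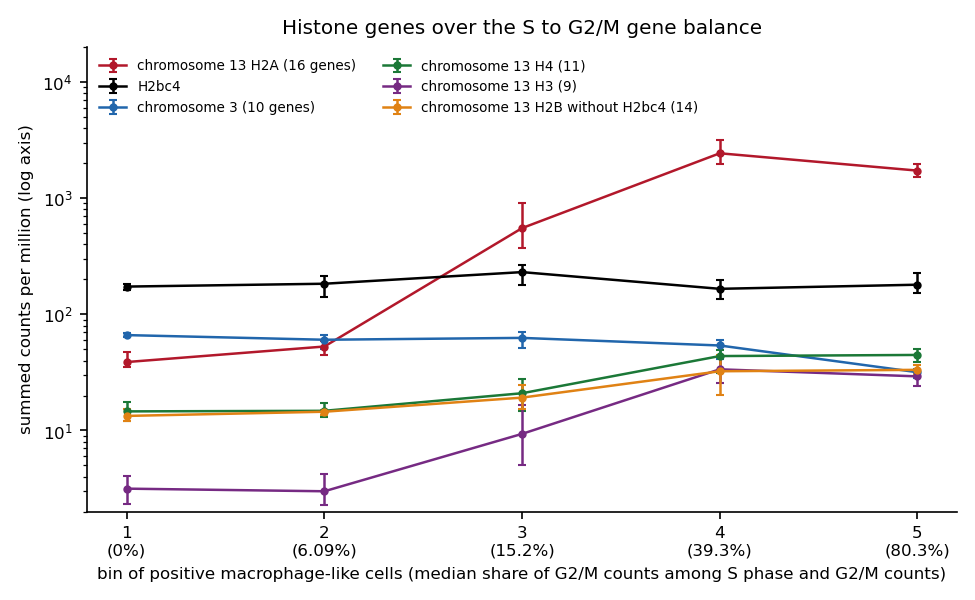
Summed CPM (log axis) of member groups in 5 bins of positive macrophage-like cells ordered by the share of G2/M counts (median share under each bin); points are the pool and bars run from the lowest to the highest hashtag. Chromosome 13 H2A genes go from 38.8 CPM in the first bin to 2433 in the fourth, the smaller chromosome 13 groups also step up from the third to the fourth bin, H2bc4 stays level and the chromosome 3 genes are lowest in the fifth.

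As a description across cells, Spearman correlations with Hist1h2ao were computed over 2056 positive macrophage-like cells thinned to 15000 counts, which all share 1 pool and the copies' near-identical sequence. They were 0.833 for Hist1h2ap, 0.815 for H2ac11, 0.777 for H2ac6, 0.741 for H2ac4 and 0.740 for H2ac12. H2ac6, with mostly unique sequence, stood between Hist1h2ap and H2ac12, which have little. However, 2010 of the 2482 bases of its model lie past the stem-loop. The place of its counts within the model is not given here. Outside the H2A genes of chromosome 13, the value was 0.582 for Top2a, 0.578 for Rrm2 (a ribonucleotide reductase subunit), 0.280 for H3c3, −0.097 for H2ac18 and −0.157 for H2bc4.

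The genes that make, process and carry histones were looked at through fixed lists in macrophage-like cells. Of 15 genes of histone mRNA processing and transcription, 1 was called higher in positive cells and 0 lower (background over all genes 2.9% and 0.0288%). It was E2f2, a transcription factor of S phase entry, with 13.2 against 2.25 CPM (log2 ratio 2.13). Slbp had 52.5 against 29.1 CPM (0.83) and Npat, a coactivator of histone transcription, 13.4 against 9.84 (0.41); neither met the rule. The smallest ratio of the list was −0.11, for Zfp473. Of 13 histone chaperone and assembly genes, 5 were higher and 0 lower: Asf1b (40.3 against 3.39 CPM, log2 ratio 3.23), a chaperone of H3-H4, then Hjurp (1.75), Chaf1b (1.63), Chaf1a (1.45) and Hat1 (1.30). The smallest was Daxx (−0.09).

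Replication-independent histone genes can be expressed outside S phase. Of the 9 at 5 CPM (of 11 in the list), 4 were called higher in positive macrophage-like cells (background 2.9%). These were Cenpa, the H3 variant of centromeres, with 133 against 37.2 CPM (log2 ratio 1.82), H2ax (1.78), H2az2 (1.30) and H2az1 (921 against 447 CPM, 1.04). H3f3a, which encodes H3.3, had 1136 against 1066 CPM and H3f3b, which encodes the same protein, 1584 against 1613. The smallest ratio was −0.19, for H2aj. In comparison, 18 of 20 S phase genes were higher, led by Rrm2 (4.79), Clspn (3.44) and Uhrf1 (3.14), and Pcna had the smallest ratio (1.03) and was not called. All 18 G2/M genes were higher, from Kif11 (2.43) to Hmmr (4.66), Nusap1 (4.94) and Ccna2 (5.2). Mki67 and Top2a are cycle markers themselves, so a rise of these 2 lists was largely set by the split of the cells.

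Hashtag A0311 had other proportions among the H2A copies than the remaining 3 hashtags. In positive macrophage-like cells, H2ac10 had 3.07, 2.36, 42.5 and 2.76 CPM in A0309, A0310, A0311 and A0312, and Hist1h2an had 19.7, 13.2, 57.9 and 16.3. H2ac7 had 34.6, 23.3, 79.8 and 28.3, and H2ac12 33.3, 21.5, 71.8 and 27.3. H2ac11, with 157, 111, 91.4 and 129 CPM, was lowest in A0311. Negative cells showed the same for H2ac10, with 0.377, 0.349, 2.20 and 0.196 CPM. H4c9 in negative macrophage-like cells was also higher in A0311, with 14.1 CPM against 7.82, 7.86 and 7.72.

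The shift was seen cell by cell. Counts of each gene were divided by the Hist1h2ao counts of the same cell, in all kept cells with at least 20 Hist1h2ao counts (127, 98, 140 and 182 cells by hashtag). The median for H2ac10 was 0, 0, 0.218 and 0. A ratio of 0.1 or more, a value chosen after the ratios were seen, was reached by 1 of 127, 2 of 98, 130 of 140 and 2 of 182 cells (0.787%, 2.04%, 92.9% and 1.10%). Among macrophage-like cells alone it was 1 of 111, 0 of 87, 126 of 135 and 1 of 157, and among cells of the other lineages 0 of 16, 2 of 11, 4 of 5 and 1 of 25. The difference thus lay in nearly all of the 140 cells of A0311 with at least 20 Hist1h2ao counts. Cells with fewer Hist1h2ao counts are not covered by these ratios. Medians were also higher in A0311 for Hist1h2an (0.298 against 0.0690, 0.0759 and 0.0738), H2ac7 (0.394 against 0.128, 0.125 and 0.125), H2ac12 (0.362 against 0.118, 0.123 and 0.123), H2ac13 (0.333 against 0.111, 0.128 and 0.130) and H2ac14 (0.276 against 0.0941, 0.0971 and 0.10). H2ac4 and H2ac8 showed it less, with 0.266 and 0.268 in A0311 against at most 0.131 and 0.151. H2ac11 was lower in A0311 (0.471 against 0.607, 0.624 and 0.605), and H2ac6 (0.281 against 0.276, 0.286 and 0.289) and Hist1h2ap (1.48 against 1.34, 1.43 and 1.35) were close to the other hashtags. As these genes share most of their sequence, the shift can be stated for the counts assigned to them and not for each gene. Its relation to genotype cannot be read, because no label gives the genotype of a hashtag.

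**Figure D5:**
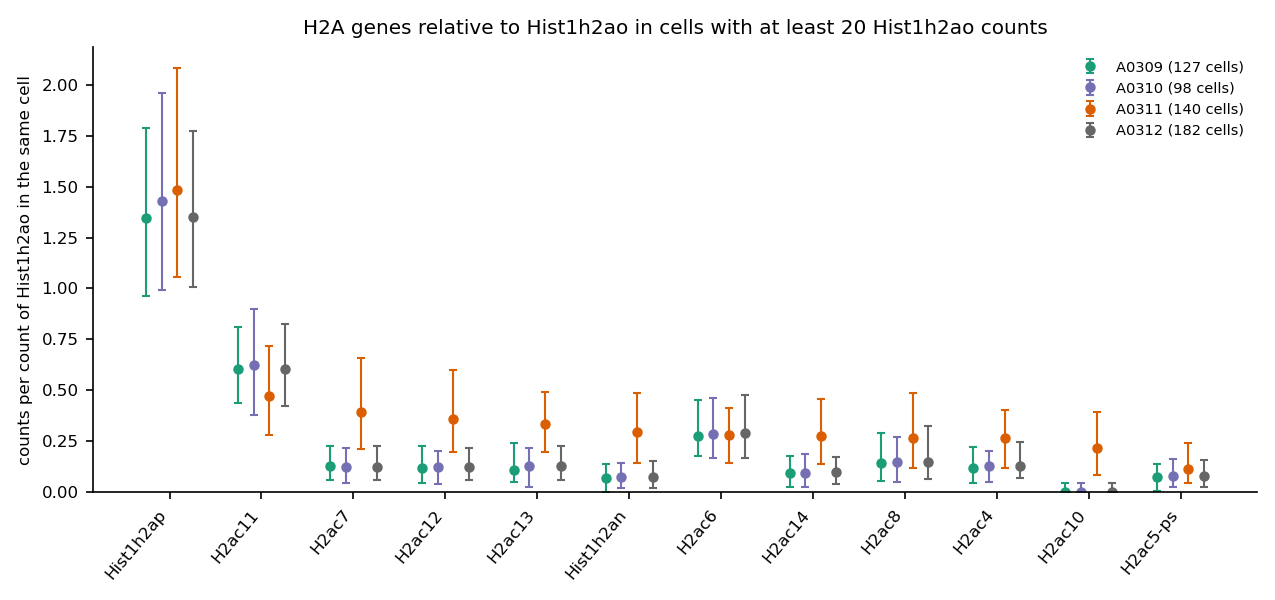
Counts of 12 chromosome 13 H2A genes per count of Hist1h2ao in the same cell, in cells with at least 20 Hist1h2ao counts; points are medians and bars the 5th to 95th percentile of cells, coloured by hashtag. A0311 (orange) lies above the rest for H2ac10 (median 0.218 against 0), Hist1h2an, H2ac7, H2ac12, H2ac13 and H2ac14, below them for H2ac11, and beside them for H2ac6 and Hist1h2ap.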

How the data were processed

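The deposited transcript table holds whole-number counts per gene and cell, and the hashtag table whole-number tag counts. The sources used here do not state if the authors counted reads or molecules. The build GRCm38 and the tools Bowtie2 2.4.2, cutadapt 3.4, R 4.1.2 and R 3.6.3 are listed without roles, per the submitters' processing notes. Low values of 65 genes, Hist1h2ap among them, had been set to 0 before deposit. Of 15741 cells, against 20000 loaded, 367 named doublets by the authors in the cell names were left out, then 182 cells under 200 genes or over 25% mitochondrial counts and, of the rest, 2168 cells whose second hashtag held over 25% of at least 10 tag counts. Doublets within a hashtag were sought only as sub-clusters with markers of another class, which removed 1083 cells. Another 173 cells stayed unnamed.

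Cells were clustered with scanpy 1.11.5 and leidenalg 0.10.2 (Python 3.11.15, 2000 variable genes, 30 components, 20 neighbours, resolution 1, seed 1), leaving out the members and the S phase and G2/M lists. A cluster was named when at least 3 markers were in 25% of its cells and had a log2 ratio of 1 or more. The ratio was taken over the lower quartile of the marker's CPM among the clusters. Counts were summed and scaled to CPM (pseudocount 1). With 1 pool no test was possible, so calls follow a rule of size, checked on simulated data. The members, lists and markers were chosen with earlier results of these data known. Named were, among members at 5 CPM, the 8 highest, the highest per family, the 6 largest and 6 smallest called and the 2 highest uncalled of each comparison, and H2bc4 and H2bc21. From the lists, Slbp, Npat and the 3 largest and 1 smallest ratios were named. Alternatives were other hashtag rules, leaving out a hashtag, thinning, pseudocount, filters, resolution and other definitions of positive and negative cells.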

Additional observations from a re-analysis of the deposited data

Results flagged for a closer look

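For each member, named or not, at 5 CPM or more in positive or negative macrophage-like, fibroblast-like or endothelial-like cells, the 4 hashtags were set side by side. In 9 of 74 such sets the hashtag farthest from the rest lay apart by more than Dixon's 95% limit for 4 values, which chance passes in about 1 in 20 sets. The hashtags are not replicates of a group, so this is a screen of values and no test of a difference. Of the 9, 4 were in A0311. In positive macrophage-like cells these were H2ac10 at 42.5 CPM, where A0309, A0310 and A0312 had 3.07, 2.36 and 2.76, and Hist1h2an at 57.9 CPM, where they had 19.7, 13.2 and 16.3. H4c9 in negative macrophage-like cells was at 14.1 CPM in A0311 (7.82, 7.86 and 7.72 in the others), and H2ac18 in positive endothelial-like cells at 32.5 CPM (16.9, 16.7 and 17.8).

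A0310 stood apart in fibroblast-like cells. In positive cells its level was 3.87 CPM for H2ac12 (8.34, 9.19 and 8.28 in A0309, A0311 and A0312), 1.38 for H2ac14 (9.01, 8.11 and 8.10) and 7.75 for H2bc6 (14.7, 14.1 and 13.5). In negative cells it was 110.5 CPM for H2bc4 (96.8, 94.4 and 96.7). In positive endothelial-like cells H2ac4 had 21.1 CPM in A0312 and 46.9, 47.3 and 43.4 in the other hashtags.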

How the results depend on the processing

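No paired analysis was possible because the labels give no replicate numbers and the pool is 1 sample. Of 297 alternative values for 20 main results, 244 stayed within 1.5 times of the count, or within 1 SD over hashtags of the level, and 53 did not; the cause of a shift was not tested except where an alternative by construction leaves fewer genes or cells. For 17 results on single genes or cells, 204 of 216 values stayed, 8 calls were gained, 4 values moved, and none was lost or reversed. The 13 members called higher in positive macrophage-like cells stayed within 1.5 times in every alternative run. Other counts of members higher moved as follows. In fibroblast-like cells 11 became 5 with the authors' hashtag calls, 3 with a pseudocount of 5 CPM and 3 at 20 CPM. In endothelial-like cells 14 became 2 without cells over the 95th percentile of counts. In NK-cell-like cells 34 became 15 at 20 CPM; with the authors' calls or the strict rule no cluster met that name, so no value was given. In dendritic-cell-like cells 23 became 35 without a filter and 13 at 20 CPM. Between negative cells, macrophage-like over fibroblast-like, 7 became 2 with a pseudocount of 5, 3 at 20 CPM and 4 with mixed sub-clusters kept. It became 3 with cells also negative for the S phase and G2/M list genes detected in at most 50% of cells without either marker. Macrophage-like over endothelial-like, 0 became 1 at resolution 2, 1 with mixed sub-clusters and 3 with the lists (0 to 2 leaving out 1 hashtag, 2 without A0310). Fibroblast-like over endothelial-like, 0 became 1 when thinned (0 to 1, 1 without A0312).

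Counts of members lower were small. In macrophage-like cells 0 became 2 with both markers (H2ac18 −1.13 and H3c15 −1.37) or with 5 or more marker counts (H2ac18 −1.14 and H2ac19 −1.12). In endothelial-like cells 0 became 1 when thinned, 2 with both markers and 1 with 5 or more counts (0 to 1, 1 without A0312). The 1 in NK-cell-like cells became 0 with a pseudocount of 5, at 20 CPM and with both markers (0 to 1, 0 without A0309). The 1 in dendritic-cell-like cells became 0 when thinned, with a pseudocount of 5 and at 20 CPM (0 to 1, 0 without A0309 or A0311). The 1 of macrophage-like over fibroblast-like negative cells became 0 with the strict rule, the mean over cells, thinning, a pseudocount of 5, 20 CPM and the lists. Fibroblast-like over endothelial-like, 0 became 2 with the authors' calls, the strict rule or thinning, and 1 without the deepest cells, with the mean over cells or with mixed sub-clusters (0 to 3, 1 without A0310 or A0312 and 3 without A0311). H3c3 was called higher in macrophage-like cells when thinned (log2 ratio 2.52), with no filter (2.07), with both markers (2.92) and with 5 or more counts (2.79). The summed level was 171 CPM in fibroblast-like cells with the authors' calls, 441 with the strict rule, 180 as a mean over cells and 289 with mixed sub-clusters, against 205; in macrophage-like cells it was 664 as a mean over cells and 689 when thinned, against 779. The share of cells at 0.1 H2ac10 per Hist1h2ao count was 0%, 0%, 97.5% and 0% by hashtag with at least 50 counts, and 0.775%, 1.02%, 91.8% and 1.11% with the strict rule, both chosen after seeing the data.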

Other observations

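Histone genes that the current symbols put outside the rule gave the following values in positive and negative macrophage-like cells. H1f2 (older name Hist1h1c), a linker histone gene known to give polyadenylated RNA, had 151 and 158 CPM, a log2 ratio of −0.06. H2aw (older name Hist3h2a) had 23.8 and 30.3 CPM (−0.34), and H4f16 (older name Hist4h4) 1.42 and 1.17. The linker genes H1f3 (7.38 and 2.34 CPM, log2 ratio 1.33), H1f4 (11.7 and 2.30, 1.94) and H1f5 (8.03 and 0.186, 2.93) met the size rule as higher in positive cells. H1f1 had 1.70 and 0.0772 CPM, H1f0, a linker gene of resting cells, 34.0 and 30.6, and H1f10 1.2 and 0.617. H2bu2 had 1.76 and 1.78 CPM.

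The 2 clusters left unnamed held 145 cells, 33 of them positive, with 254 CPM over the members (H2bc4 101, Hist1h2ao 20), and 28 cells, 3 of them positive, with 188 CPM (H2bc4 17.4, Hist1h2ao 3.49).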
